A study of Mus musculus with 26 samples.

Results

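Interferons act through pairs of receptor chains on the cell surface. Type I interferons, such as interferon beta, bind the product of Ifnar2 together with that of Ifnar1, and interferon gamma binds the product of Ifngr1, which signals together with that of Ifngr2. The kinases Tyk2 and Jak1 serve the type I receptor, and Jak1 and Jak2 serve the interferon gamma receptor. Activated kinases phosphorylate STAT proteins, which then switch on interferon-stimulated genes. Among the genes switched on are those of the suppressors of cytokine signalling: Socs1 binds JAK kinases and blocks them, and Socs3 does so mainly at receptors of the interleukin 6 family. The 9 genes described here are therefore the 4 receptor chains (Ifnar1, Ifnar2, Ifngr1, Ifngr2), the 3 kinases (Jak1, Jak2, Tyk2) and the 2 suppressors (Socs1, Socs3). They were chosen by symbol, and all 9 were found among the 31053 genes listed in the microglia libraries and among the 30406 listed in every cortex library.

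The study asked how maternal immune activation (MIA) reaches the fetal cortex and what microglia, the resident macrophages of the brain, contribute. C57Bl/6N dams were injected at E12.5 (E for embryonic day) with saline or with poly(I:C), which imitates viral RNA. Microglia were sorted by FACS for Cd11b, Cx3cr1 and Cd45 from the somatosensory (S1) cortex of WT offspring, and single cells were sequenced with a 3′ kit: 3 saline and 3 MIA libraries at E13, 3 and 3 at E15, and 4 saline and 2 MIA libraries at postnatal day (P) 14. These libraries are of mixed sex, apart from a female and a male P14 saline library that share replicate number 3. Nuclei were sorted from frozen prospective S1 cortex of male E15 embryos that were WT or Csf1r-/- (Csf1r KO, which lack the receptor that microglia need to develop), with 2 libraries for each genotype after saline and 2 after MIA. Controls were injected dams too, so no group is free of an injection. E13 and E15 are the ages in the sample titles, and the paper gives both as later on the same embryonic day. The time from injection to sampling is therefore longer than these labels imply. Embryonic microglia libraries pooled embryos, and the nuclei came from fewer dams than there are libraries, with WT littermates as controls of Csf1r KO embryos, so nuclei libraries share dams across genotypes. Nothing in the labels says that the libraries of a group came from separate litters, so the p-values measure the spread between these libraries, which may be technical in part.

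Each microglia library held 266 to 5467 cells and 5966696 to 95380886 unique molecular identifiers (UMIs, counted molecules) after filtering, and each cortex library 4386 to 5891 nuclei and 9125758 to 16386924 UMIs. Values below are CPM, the UMIs of a gene per 1000000 UMIs of a library or of a class of nuclei. Microglia libraries shared cell barcodes, up to 48.6% of the barcodes of E13 MIA replicate 1 and 70.1% of those of E13 MIA replicate 2, and each shared barcode was kept only in the library where it had the most UMIs. The copies so removed held 0.01 and 0.22% of the UMIs of these 2 libraries. They held most in E15 MIA replicate 3 (10.22%) and in the female and male P14 saline libraries (8.19 and 6.09%). Both libraries labelled WT MIA replicate 2 and Csf1r KO saline replicate 2 among the nuclei went against their labels: the first held 0 Csf1r UMIs and 0 microglia-like nuclei, and the second held 10 and 7, against 11 to 23 UMIs and 6 to 9 nuclei in the other libraries labelled WT. E15 saline replicate 1 held 28.1% dividing microglia, against 5.5 to 7.4% in the other 5 E15 libraries and 23.7 to 35.9% at E13. In E15 MIA replicate 1 the summed level of 17 immediate early genes, which are switched on within minutes of stimulation or handling, was 1627 CPM, against 499.7 to 575.9 CPM in the other E15 libraries.

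Stretches upstream of 4 members are shown because they carry letters that interferon-activated factors are known to bind, and that of Socs1 in full because Socs1 stood far above its other levels in interferon-responsive microglia of the embryo. The interferon-stimulated response element was searched as GAAA, any 2 bases and GAAA again, and the gamma-activated site as TTCNNNGAA, on both strands, from 250 bases before to 50 after each start in RefSeq (GRCm38.p6), where all 9 members had an entry. Capitals mark the matches. In Socs1 the 2 matches of the response element overlap in a single run and begin 83 and 77 bases before the start. Its upstream stretch, chr16:10785537-10785786 on the minus strand, is given 5′ to 3′.
Socs1: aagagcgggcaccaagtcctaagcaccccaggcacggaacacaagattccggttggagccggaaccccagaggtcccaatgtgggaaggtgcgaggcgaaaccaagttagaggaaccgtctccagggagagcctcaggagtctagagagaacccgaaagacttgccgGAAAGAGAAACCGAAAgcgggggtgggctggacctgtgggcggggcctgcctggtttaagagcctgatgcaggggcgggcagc

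TTCNNNGAA was found in 3 members. The windows of 30 bases around it lie at chr11:117969501-117969530 on the minus strand for Socs3 (beginning 154 bases before the start), at chr16:91485200-91485229 on the plus strand for Ifnar1 (5 bases before) and at chr16:91372559-91372588 on the plus strand for Ifnar2 (214 bases before).
Socs3: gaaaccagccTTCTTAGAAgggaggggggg
Ifnar1: ggcgggggcgTTCACGGAAggggcggggcg
Ifnar2: tgccaaggccTTCCTGGAAgaagagagtac

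Of 32851 mouse promoters of the same length, 3.44% held the response element and 8.3% held TTCNNNGAA. Ifngr1, Ifngr2, Jak1, Jak2 and Tyk2 held neither in these windows. A match describes the letters only. In GRCm38, GENCODE M21 places 3 of the receptor genes near each other on chromosome 16: Ifnar2 at chr16:91372783-91405589, Ifnar1 at chr16:91485238-91507441 and Ifngr2 at chr16:91547072-91565623, all on the plus strand. Ifngr1 lies at chr10:19591949-19610229 (plus), Jak1 at chr4:101152367-101265282 (minus), Jak2 at chr19:29251828-29313080 (plus), Tyk2 at chr9:21104068-21131243 (minus), Socs1 at chr16:10782240-10785536 (minus) and Socs3 at chr11:117966079-117970047 (minus). The Socs3 window above was placed by the RefSeq start and lies within this GENCODE span of Socs3, not upstream of it. Ifnar2 overlaps Gm21970 on the same strand, Tyk2 overlaps 1700084C06Rik on the other strand and Jak1 contains Gm12785 and Gm24468, so their counts may share reads.

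In sorted microglia, Ifngr1 rose with age at both steps and in both treatments. Ifngr1, the chain that binds interferon gamma, stood at 294.9, 293.7 and 270.8 CPM in the E13 saline libraries and at 305.0, 302.0 and 290.6 CPM after MIA. At E15 it stood at 475.8, 581.1 and 580.6 CPM after saline and at 552.8, 629.7 and 532.8 CPM after MIA. At P14 it stood at 1082, 1020, 1139 and 1120 CPM after saline and at 1085 and 1136 CPM after MIA. No E15 library overlapped an E13 library, and no P14 library overlapped an E15 library. The fitted age steps, here and below, are relative to the median gene. From E15 to P14 the CPM of that gene rose by 0.288 on the log2 scale after saline and by 0.267 after MIA. Fitted steps from E15 to P14 are therefore lower than the changes in CPM. E15 exceeded E13 by a log2 fold change of 0.95 (SE 0.11, 1.93-fold, adjusted p = 4.12e-05, edgeR) after saline and of 0.99 (SE 0.11, 1.99-fold, adjusted p = 2.22e-05) after MIA, and P14 exceeded E15 by 0.75 (SE 0.10, 1.69-fold, adjusted p = 1.55e-05) and 0.73 (SE 0.12, adjusted p = 0.000185).

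**Figure D1:**
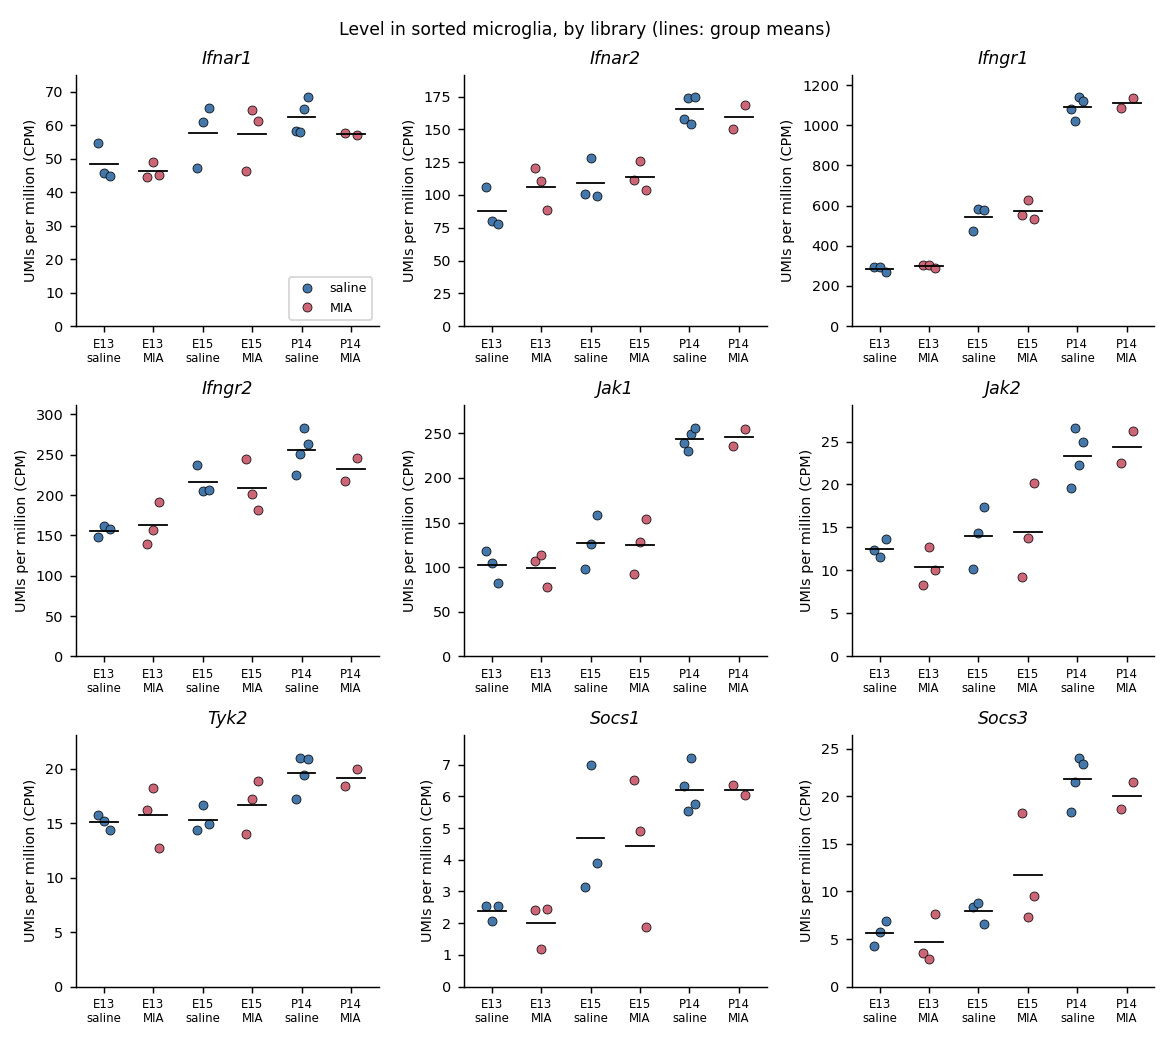
Levels of the 9 genes in each of the 18 sorted microglia libraries in CPM, by age and treatment, with the mean of each group as a line. Ifngr1 separates the 3 ages, from 270.8 to 305.0 CPM at E13 to 1020 to 1139 CPM at P14, while saline and MIA libraries of an age overlap in nearly every panel.

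These values are sums over all microglia of a library, in which fewer cells of a kind and less RNA per cell cannot be told apart. The shares of substates did move with age: dividing clusters held 23.7 to 35.9% of cells at E13 and 0.0 to 0.4% at P14. The summed level of 10 microglial markers rose as well, from 17640 to 19940 CPM at E13 to 26620 to 38660 CPM at E15 and 51950 to 59500 CPM at P14. Within the maturing or homeostatic clusters alone, Ifngr1 still ranged from 304.8 to 332.8 CPM at E13, from 588.8 to 756.0 CPM at E15 and from 1038 to 1152 CPM at P14. In dividing clusters it ranged from 252.0 to 313.4 CPM at E13 and from 391.0 to 496.7 CPM at E15, and in clusters of Ms4a7 or border macrophage type from 232.5 to 297.6 CPM and from 502.1 to 663.5 CPM. The steps within the maturing or homeostatic clusters were 1.08 from E13 to E15 and 0.50 from E15 to P14 after saline (adjusted p = 7.96e-06 and 0.000978, edgeR). Embryonic and P14 cells were clustered apart, so the second of these steps compares different clusters that share a name.

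The name also covers unlike cells at the embryonic ages. Embryonic clusters of 3206 and 772 cells and a P14 cluster of 68 cells that carry it were led by genes of DNA replication, such as Dtl, Hells and Mcm2. These made up nearly all of the maturing cells at E13, where 42 to 1199 cells per library fell to 1 to 47 without them, against 571 to 2386 and 496 to 2035 cells at E15. The steps from E13 to E15 given for the maturing or homeostatic clusters therefore compare mostly replicating cells at E13 with mostly other cells at E15. With the replicating clusters left out, a setting chosen after seeing the data, Ifngr1 ranged from 445.0 to 808.5 CPM at E13 and from 676.1 to 790.0 CPM at E15, which overlapped, and from 1039 to 1153 CPM at P14, which did not overlap E15. Its steps were then 0.57 and 0.62 from E13 to E15 (adjusted p = 0.296 after saline and 0.40 after MIA, edgeR) and 0.39 and 0.42 from E15 to P14 (adjusted p = 0.0805 and 0.144), and none passed. All ages share 1 fit, so the E13 libraries of 1 to 47 cells enter the spread of each step. In that setting no member passed from E13 to E15, where 3 of all genes were called after saline and 0 after MIA, and from E15 to P14 Jak1, Socs1 and Socs3 passed after saline and Jak1 after MIA. Without any 1 library, and in the other alternative settings, Ifngr1 kept all 4 of its age calls.

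Ifngr2, the signalling chain beside Ifngr1, moved less. After saline it stood at 147.6, 161.5 and 158.3 CPM at E13, at 237.3, 205.1 and 205.7 CPM at E15, and at 225.1 to 283.6 CPM at P14 (median 257.1). The 3 E15 libraries lay above the 3 E13 libraries, while E15 and P14 overlapped. The step from E13 to E15 was 0.50 on the log2 scale (SE 0.16, 1.41-fold, adjusted p = 0.0328), and it passed only narrowly, since leaving out any 1 of the 3 E13 saline libraries or E15 saline replicate 1 or 2 took the adjusted p to between 0.0611 and 0.0964. After MIA the same step was 0.42 (adjusted p = 0.0598), which passed without E13 MIA replicate 3 (0.60, adjusted p = 0.0141) or E15 MIA replicate 3 (0.54, adjusted p = 0.0227), with DESeq2 (0.43, adjusted p = 0.0358) and within the maturing or homeostatic clusters (0.46, adjusted p = 0.0395). Relative to the median gene, the steps from E15 to P14 were -0.01 and -0.08. Mean CPM of Ifngr2 rose, from 216.0 to 255.7 after saline and from 208.9 to 232.2 after MIA.

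The type I receptor chains changed little. Ifnar1 ranged from 44.51 to 54.67 CPM over the 6 E13 libraries, from 46.19 to 65.04 CPM at E15 and from 57.01 to 68.24 CPM at P14. CPM of the median gene rose by 0.288 on the log2 scale from E15 to P14 after saline and by 0.267 after MIA, and relative to that the Ifnar1 steps were -0.13 and -0.22 (adjusted p = 0.341 and 0.231, edgeR). Its step from E13 to E15 passed after MIA (0.36, SE 0.12, adjusted p = 0.0396) and not after saline (0.28, adjusted p = 0.105), and the difference between treatments was itself not called by the interaction test given below. The MIA call was lost without any 1 of the E13 MIA libraries or without E15 MIA replicate 2 or 3 (adjusted p from 0.0678 to 0.17), and also with all cells (0.24, adjusted p = 0.164), without a filter on low counts (adjusted p = 0.0743) and from 1000 genes per cell upward (adjusted p = 0.0504). The saline step passed without E15 saline replicate 1, the library rich in dividing cells (0.41, adjusted p = 0.0126), and within the maturing or homeostatic clusters (0.36, adjusted p = 0.0379). Ifnar2, the high-affinity chain for type I interferons, stood at 100.4, 128.0 and 98.99 CPM in the E15 saline libraries and at 158.3, 173.9, 154.4 and 174.4 CPM in the P14 saline libraries, with no overlap. Relative to the median gene, the Ifnar2 step was 0.35 (SE 0.14, adjusted p = 0.0407). It was lost without P14 saline replicate 1, 2 or 3 male, or E15 saline replicate 1 or 3, at adjusted p from 0.0694 to 0.158, within the maturing or homeostatic clusters (0.29, adjusted p = 0.0785) and without a filter on low counts (0.33, adjusted p = 0.0855), and with shared barcodes kept in every library it was 0.34 (adjusted p = 0.0519). Its step from E13 to E15 after saline was 0.34 (adjusted p = 0.102), and it passed without E13 saline replicate 1 (0.49, adjusted p = 0.0381) and within the maturing or homeostatic clusters (0.50, adjusted p = 0.0144). After MIA neither Ifnar2 step passed, at 0.16 from E13 to E15 (adjusted p = 0.441) and 0.26 from E15 to P14 (adjusted p = 0.221).

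Among the kinases, Jak1, which is common to both receptors, rose from E15 to P14. It stood at 97.83, 125.9 and 158.5 CPM in the E15 saline libraries and at 239.7, 229.9, 249.6 and 256.5 CPM at P14, and after MIA at 92.29, 128.4 and 153.6 CPM against 235.9 and 255.3 CPM. Every P14 library lay above every E15 library. The step was 0.70 (SE 0.16, 1.62-fold, adjusted p = 0.00208) after saline and 0.76 (SE 0.19, adjusted p = 0.00499) after MIA, and it held without any 1 library and within the maturing or homeostatic clusters (0.66 and 0.75). From E13 to E15 it did not pass (0.34 and 0.38, adjusted p = 0.162 and 0.108), but did so after saline without E15 saline replicate 1 (0.51, adjusted p = 0.0303) and after MIA without E15 MIA replicate 1 (0.56, adjusted p = 0.0209) or within the maturing or homeostatic clusters (0.45, adjusted p = 0.0394). Jak2, the partner of Jak1 at the interferon gamma receptor, ranged from 10.17 to 17.34 CPM in the E15 saline libraries and from 19.57 to 26.62 CPM at P14, a step of 0.50 (SE 0.20, adjusted p = 0.0434) that was lost without E15 saline replicate 1 or 2, or without P14 saline replicate 2, 3 female or 3 male, at adjusted p from 0.0548 to 0.165, and within the maturing or homeostatic clusters (0.45, adjusted p = 0.068), without a filter on low counts (adjusted p = 0.0569) and with the female and male libraries of P14 saline replicate 3 summed as 1 (0.52, adjusted p = 0.0607). After MIA its steps were 0.50 from E13 to E15 and 0.56 from E15 to P14 (adjusted p = 0.101 and 0.0708). Both passed with the replicate number as a block (0.50 and 0.67, adjusted p = 0.0373 and 0.00873), the first also without E15 MIA replicate 1 (0.74, adjusted p = 0.0144) and with all cells (0.55, adjusted p = 0.0448), and the second without E15 MIA replicate 3 (0.83, adjusted p = 0.00738). Tyk2, the kinase bound to Ifnar1, ranged from 12.77 to 21.01 CPM over all 18 libraries, and none of its 4 steps passed (-0.02 to 0.16).

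The suppressors were counted from few molecules before birth, 7 to 292 UMIs per library for Socs1 and 17 to 818 for Socs3. Socs3 stood at 8.39, 8.79 and 6.55 CPM in the E15 saline libraries and at 18.37, 21.47, 24.06 and 23.44 CPM at P14, with no overlap and a step of 1.21 (SE 0.32, 2.31-fold, adjusted p = 0.00437) that held in every setting. After MIA, Socs3 stood at 3.57, 2.85 and 7.60 CPM at E13 and at 18.29, 7.37 and 9.51 CPM at E15. That step was 1.20 (SE 0.35, adjusted p = 0.0175), and without E15 MIA replicate 1 it was 0.64 (adjusted p = 0.129). Leaving out E13 MIA replicate 1 or 2 also took the call away (adjusted p = 0.0654 and 0.0668). After saline the same step was 0.51 (SE 0.34, adjusted p = 0.284) and did not pass. From E15 to P14 after MIA the step was 0.52 (adjusted p = 0.285), and 1.11 without E15 MIA replicate 1 (adjusted p = 0.0155). E15 MIA replicate 1 is the library with 1627 CPM of immediate early genes, and 9 genes of NF-kB feedback summed to 1059 CPM there against 242.6 to 746.4 CPM in the other E15 libraries. At P14 the immediate early genes summed to 824.8 to 1019 CPM. The part of these genes in the Socs3 values was not tested.

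Socs1 stood at 2.55, 2.07 and 2.53 CPM in the E13 saline libraries and at 3.15, 7.0 and 3.89 CPM at E15, and after MIA at 2.43, 1.17 and 2.44 CPM and at 6.53, 4.91 and 1.88 CPM. After saline the ages did not overlap, but the step of 0.99 (SE 0.37) did not pass (adjusted p = 0.0613), although it did without E15 saline replicate 1 (1.22, adjusted p = 0.0227) and with DESeq2 (0.99, adjusted p = 0.0401). Within the maturing or homeostatic clusters the saline step was 0.06 (adjusted p = 0.919). After MIA the groups overlapped and the step of 1.14 (SE 0.40, 2.2-fold) passed (adjusted p = 0.0393), while without E15 MIA replicate 1 it was 0.73 (adjusted p = 0.172), without E13 MIA replicate 1, 2 or 3 or E15 MIA replicate 2 it was also lost, and within the maturing or homeostatic clusters it was 0.68 (adjusted p = 0.211). With the replicate block it was 1.04 (adjusted p = 0.0679, edgeR) and with all cells 1.02 (adjusted p = 0.0511), and neither passed. P14 libraries held 5.53 to 7.22 CPM, close to the highest E15 libraries. The saline step from E15 to P14 was 0.17 (adjusted p = 0.696), and within the maturing or homeostatic clusters it was 0.81 and passed (adjusted p = 0.0402).

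In counts, 2 of the 9 genes rose from E13 to E15 after saline, where 23.9% of 14136 genes were called, and 4 rose after MIA, where 29.0% were called. From E15 to P14, 5 rose after saline against 50.4% of genes called, and 2 rose after MIA against 36.3%. None fell. The median step of the 9 genes was 0.34, 0.42, 0.35 and 0.26 in that order, beside medians between 0.01 and 0.04 over all genes. The steps from E13 to E15 and from E15 to P14 share their E15 libraries.

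MIA did not change any of the 9 genes detectably at any age. At E13 the member differences ran from -0.30 for Jak2 (SE 0.15, 95% interval -0.64 to 0.05) to 0.26 for Ifnar2 (SE 0.15, -0.08 to 0.59). Ifnar2 stood at 106.1, 80.44 and 77.76 CPM after saline and at 120.5, 110.3 and 88.41 CPM after MIA, and Jak2 at 12.37, 11.58 and 13.69 CPM against 8.27, 12.74 and 10.08 CPM, and the groups overlapped for both. Between libraries of the same number, Ifnar2 and Ifngr1 were higher after MIA in 3 of 3 pairs and Socs1 in 0 of 3, the other members in 1 or 2, and with the number as a block no member passed. Counts over 3 pairs are few and their share over all genes is not given here, so they set no member apart. In E13 microglia 0 of 9 passed with edgeR, beside 0.0% of 12395 genes called. At E15, 0 of 9 passed beside 0.0% of 13161 genes, and at P14, 0 of 9 beside 0.0% of 12846 genes. No member reached an unadjusted p under 0.05 at any age, beside 122 of 12395, 74 of 13161 and 486 of 12846 genes (edgeR). Each of these shares lies under 0.05, the share expected if no gene changed. The absence of a member among them therefore sets none apart, and a missing call says little. DESeq2 called 2, 0 and 1 of all genes and a replicate block 6, 0 and 0, none of them a member.

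At E15 the member differences lay between -0.03 (Ifngr2) and 0.60 (Socs3, SE 0.36, interval -0.22 to 1.43). The Socs3 value rested on the 18.29 CPM of MIA replicate 1, with the other MIA libraries at 7.37 and 9.51 CPM against 6.55 to 8.79 CPM after saline. Socs1 had the widest interval (-1.13 to 1.12 around -0.01). At P14 the intervals of all 9 lay within -0.34 to 0.37. With 2 MIA libraries against 4 saline libraries, the Ifnar1 groups did not overlap there, at 57.68 and 57.01 CPM after MIA against 57.99 to 68.24 CPM after saline. The Ifnar1 difference was -0.09 (interval -0.27 to 0.09, adjusted p = 0.918, edgeR) and did not pass. Whether the response to MIA differed between ages was tested as an interaction. From E13 to E15, 0 of 9 members and 0.0% of 14136 genes were called, and from E15 to P14, again 0 of 9 and 0.0%. Of these 14136 genes, 106 and 154 reached an unadjusted p under 0.05, again less than a share of 0.05, and no member did. The interaction for Socs3 was 0.70 from E13 to E15 and -0.70 from E15 to P14 (adjusted p = 1.0 for both, edgeR). No member was called under MIA at any age with shared barcodes kept in every library.

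**Figure D2:**
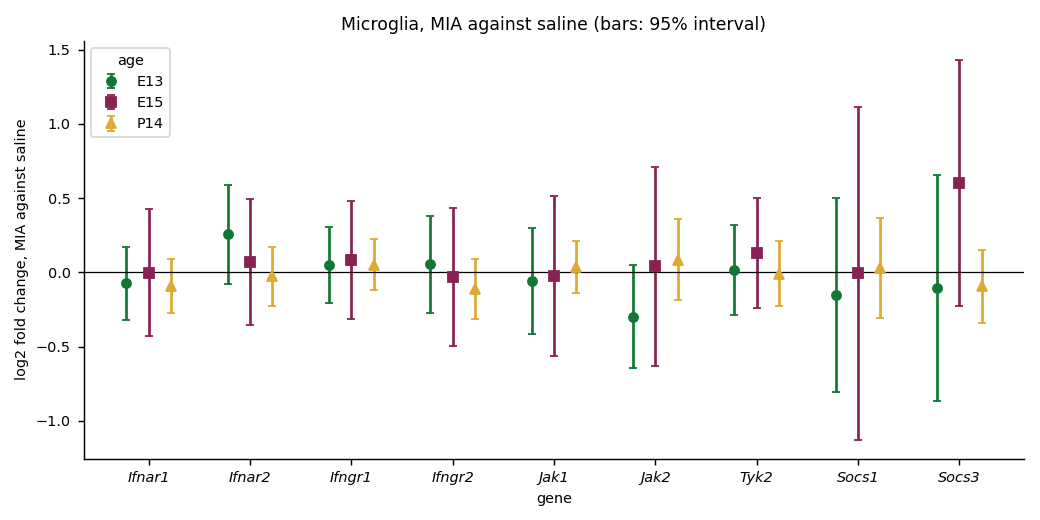
Log2 fold change of MIA against saline for each of the 9 genes in E13, E15 and P14 microglia, with 95% intervals from edgeR and a line at 0. All intervals include 0, and those of Socs1 and Socs3 at E15 are the widest.

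Socs1 and Socs3 were then set out by microglial substate, as a description, because the substates come from clusters of the same cells. Clusters rebuilt here were called interferon-responsive from Irf7, Ifit3, Ifit2, Isg15, Rtp4, Oasl2, Ifitm3 and Rsad2. These markers, but not the 9 genes, took part in the clustering. The interferon-responsive cells were 0.41 to 1.88% of cells at E13, 1.34 to 3.86% at E15 and 2.99 to 4.83% at P14. In the 5 E15 libraries with at least 50 of these cells, Socs1 stood at 16.83, 99.22 and 64.62 CPM (saline replicates 1, 2 and 3) and at 80.86 and 121.5 CPM (MIA replicates 1 and 2), from 17, 151, 66, 88 and 89 UMIs. Maturing cells held 1.59 to 5.53 CPM of Socs1 in the embryonic libraries (median 2.64), and dividing cells 0.808 to 5.40 CPM (median 2.25). Every interferon-responsive value of Socs1 at E15 thus lay above every value in these other substates.

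Socs3 showed the same order with a smaller gap, at 23.76 to 47.78 CPM in the embryonic interferon-responsive cells (median 27.42) against 4.71 to 23.6 CPM in maturing cells (median 8.76). The 23.6 CPM comes from the same E15 MIA replicate 1 that carries the immediate early genes. At P14 the Socs1 gap was narrower: interferon-responsive cells held 13.69, 12.04, 25.52 and 5.75 CPM after saline and 20.25 and 13.26 CPM after MIA, against 5.03 to 6.18 CPM in homeostatic cells and 3.29 to 7.88 CPM in cells with high Ccl3 and Ccl4. The value of P14 saline replicate 3 male, 5.75 CPM from 6 UMIs, lay inside the range of homeostatic cells. Socs3 at P14 was not higher in the interferon-responsive cells, at 15.36 to 23.48 CPM against 19.26 to 24.63 CPM in homeostatic cells.

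**Figure D3:**
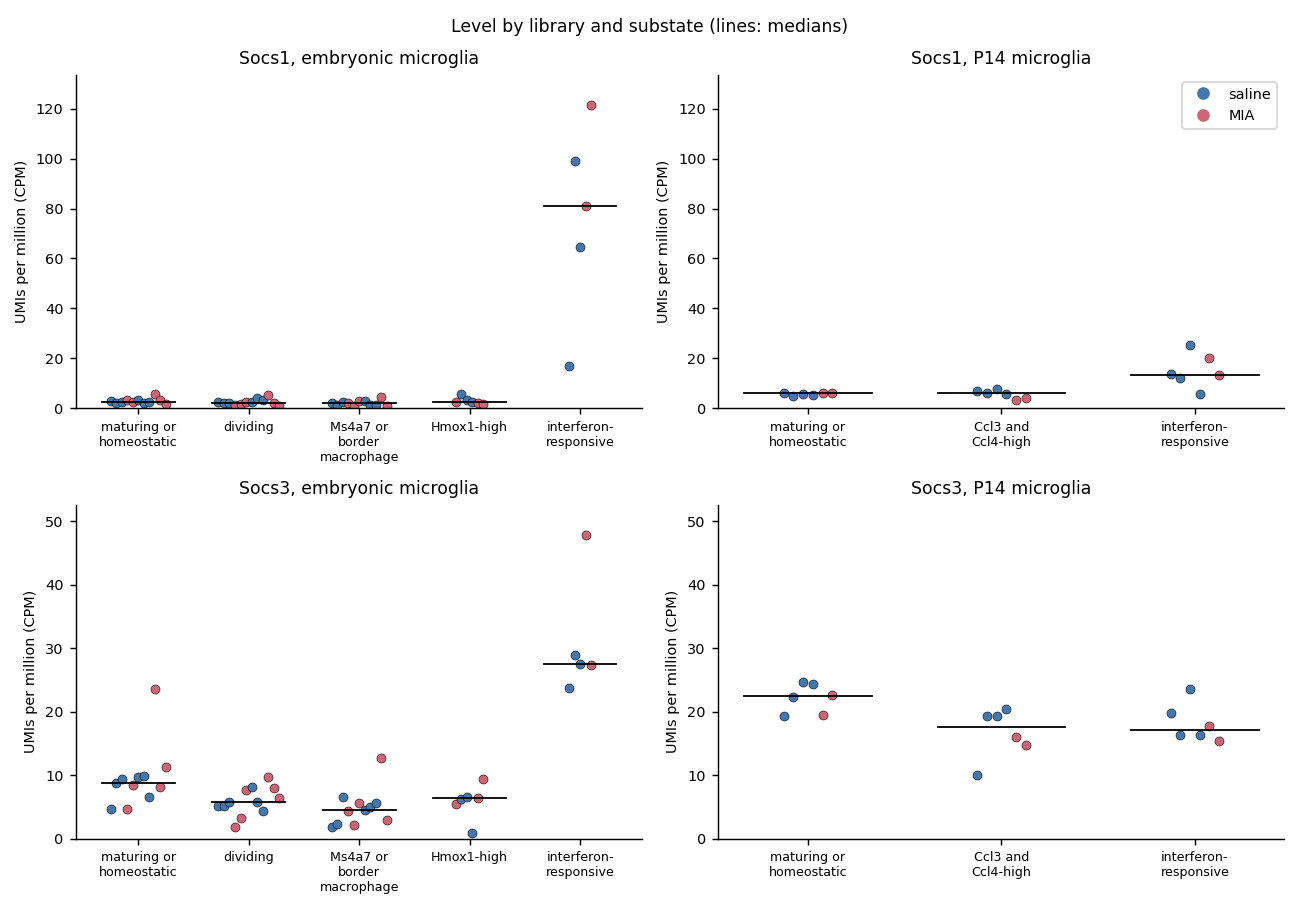
Socs1 and Socs3 in CPM by microglial substate, with 1 point for each library that had at least 50 cells of the substate and a line at the median, for embryonic libraries and for P14. Embryonic interferon-responsive cells reach 16.83 to 121.5 CPM of Socs1, above all maturing and dividing values.

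The receptor chains and kinases varied less between substates. In E15 libraries, interferon-responsive cells held a median of 55.81 CPM of Ifnar1 and 113.0 CPM of Ifnar2, beside 64.75 and 113.8 CPM in maturing cells, and the ranges overlapped. Ifngr1 was lower in them, at 343.6 to 449.5 CPM against 588.8 to 756.0 CPM in maturing cells of the same age, with no overlap. It was not particular to them. Dividing cells (391.0 to 496.7 CPM) and cells with high Hmox1 (313.4 to 482.3 CPM) of that age overlapped them, while cells of Ms4a7 or border macrophage type were higher (502.1 to 663.5 CPM). In interferon-responsive against maturing cells, Tyk2 had a median of 23.0 against 17.04 CPM, Jak1 of 109.1 against 132.4 CPM and Jak2 of 16.39 against 15.2 CPM, with overlapping ranges.

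The other genes of the pathway, taken from lists fixed with earlier results of these data known, did not move as 1 block. From E13 to E15 after saline, 9 of 16 interferon-stimulated genes rose (median 1.27), where 23.9% of all genes were called in either direction, among them Cxcl10, a chemokine (4.35), and Ifit3 (2.95), Ifit2 (2.45) and Irf7 (1.92). Of 8 STAT genes and Irf9, only Stat2 rose (0.65, adjusted p = 0.0176), and of 17 other negative regulators only Usp18, which blocks Ifnar2 (1.88, adjusted p = 0.0177). After MIA, 3 of the 16 interferon-stimulated genes rose and 1 fell, with no STAT gene called, beside 29.0% of all genes. From E15 to P14, when Ifngr1, Jak1 and Socs3 rose after saline, 12 of the 16 interferon-stimulated genes fell and Irf1 rose (0.72), beside 50.4% of all genes called, and Jak3, the kinase of the common gamma chain, fell by 0.87 on the log2 scale (adjusted p = 2.16e-05). After MIA that step again had 12 lower and 1 higher, beside 36.3% of all genes. Between treatments, 0 genes of any list passed at any age with edgeR.

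At E13 the interferon-responsive cells were 0.97, 0.41 and 0.59% of cells in the saline libraries and 1.88, 1.71 and 0.68% in the MIA libraries, higher after MIA in 3 of 3 pairs of the same number. The 16 interferon-stimulated genes summed to 502.3, 319.6 and 344.1 CPM after saline and to 596.6, 643.1 and 413.2 CPM after MIA, again higher in 3 of 3 pairs but with overlapping groups. Their median log2 fold change was 0.78, and 0 of 16 passed (smallest adjusted p = 1.0, edgeR). The highest values came from MIA replicates 1 and 2, which held 266 and 350 cells and shared the most barcodes. At E15 both measures were higher after MIA in 1 of 3 pairs. The part of cell number and of shared barcodes in the E13 values was not tested.

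The interferons themselves were nearly absent from these cells. Ifnb1, which encodes interferon beta, had 1, 100 and 28 UMIs in the E15 saline libraries, 31, 2 and 7 in the E15 MIA libraries and 0 in all E13 and P14 libraries. Ifng had 0 UMIs in all 18 libraries, where 3 UMIs is the limit that a count of 0 allows. Scaled to depth, these are 0.0142, 3.08 and 0.73 CPM of Ifnb1 after saline and 0.693, 0.0585 and 0.486 CPM after MIA. Saline replicate 2, highest in Ifnb1, was also highest in Socs1 (7.0 CPM) and in summed interferon-stimulated genes (898.6 CPM against 385.7 to 584.1 CPM in the other E15 libraries). Below it the orders differed: saline replicate 3 and MIA replicate 1 had similar Ifnb1 but 3.89 and 6.53 CPM of Socs1. The part of interferon beta in the Socs1 values was not tested.

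Across the 18 libraries, the genes whose log2(CPM + 1) ran most like that of Ifngr1 among 7886 genes were Ecscr and Izumo4 (Pearson r = 0.996 each) and Laptm5 (0.994). For Jak1 they were Git2 (0.992), Fam168a and Acap2 (0.991 each), and for Socs3 Ier5 (0.972), Plgrkt (0.967) and Herpud1 (0.966). For Socs1 they were Tex264 (0.917), Agpat3 (0.912) and Nfkbia (0.909), the inhibitor of NF-kB. Ifnar2 ran closest to Il21r (0.958), Ifngr2 to Klc4 (0.968), Jak2 to Lnpep (0.974), Tyk2 to A630001G21Rik (0.938) and Ifnar1 to Trpm7 (0.934). The points share age as their main axis, so these values describe the libraries and are no test. With the group means taken off, the closest genes were Itm2b for Socs1 (0.93) and Prelid2 for Socs3 (0.915).

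In cortical nuclei the 2 chains of the interferon gamma receptor went opposite ways from progenitors to neurons. Nuclei were clustered and named from marker genes, and the 9 genes took no part in the clustering. For each library, apical progenitor (AP)-like and intermediate progenitor (IP)-like nuclei were summed, and so were migrating, callosal (CPN), subcerebral (SCPN) and corticothalamic (CThPN) projection neuron-like nuclei. Ifngr1 stood at 9.74 to 20.9 CPM in progenitors (median 14.39) and at 1.72 to 3.02 CPM in projection neurons (median 2.36). Ifngr2 stood at 33.11 to 49.5 CPM in progenitors (median 45.61) and at 134.0 to 207.5 CPM in neurons (median 181.9). Neither pair of ranges overlapped, and each direction held in 8 of 8 libraries. Within libraries, Ifngr1 was lower in neurons by a log2 fold change of -2.37 (SE 0.17, adjusted p = 6.30e-13, edgeR) and Ifngr2 higher by 2.34 (SE 0.06, adjusted p = 3.08e-23).

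Socs1 held 2.40 to 6.11 CPM in progenitors and 0.292 to 1.39 CPM in neurons, with no overlap, and was lower in neurons in 8 of 8 libraries (-2.14, SE 0.31, adjusted p = 6.96e-07, edgeR). These values rest on 6 to 12 UMIs per library in progenitors and 2 to 11 in neurons, and 2 UMIs lie under the floor of 3 counts. By class, the Socs1 median was 5.71 CPM in AP-like nuclei, while IP-like (1.27 CPM) and migrating nuclei (0.969 CPM) overlapped. Both type I receptor chains were higher in neurons, Ifnar1 by 0.54 (SE 0.05, adjusted p = 7.16e-10) with medians of 66.36 and 77.56 CPM, and Ifnar2 by 0.78 (SE 0.08, adjusted p = 1.58e-09) with medians of 28.94 and 39.28 CPM. The ranges of these 2 overlapped, although the order held in all 8 libraries. Tyk2 was higher by 0.74 (SE 0.10, adjusted p = 1.07e-07) and Jak2 by 0.70 (SE 0.08, adjusted p = 1.18e-08), while Jak1 did not pass (0.04, SE 0.08, adjusted p = 0.613, edgeR). In CPM, Jak1 was higher in neurons in 2 of 8 libraries, with medians of 44.47 in progenitors and 35.52 in neurons. The fitted values of all members here are scaled over all genes, so they can differ from differences in CPM. The offset between both scales is not given for this comparison. Socs3 was lower in neurons in 8 of 8 libraries (a median of 7.78 CPM there, against 9.80 to 17.18 CPM in progenitors), and its fitted value of -0.34 (SE 0.14, adjusted p = 0.0322) did not pass with DESeq2 (-0.38, adjusted p = 0.0504), without a filter on low counts (-0.28, adjusted p = 0.0571) or without the 2 libraries that went against their labels (-0.22, adjusted p = 0.217). It also failed without WT saline replicate 2 (adjusted p = 0.0921), the library labelled WT MIA replicate 2 (0.107), Csf1r KO saline replicate 1 (0.0528) or the library labelled Csf1r KO saline replicate 2 (0.0538). In all, 5 members were higher and 3 lower, beside 78.1% of 12424 genes called. Nuclear RNA was counted here, and whether intron reads entered the counts is not given in the sources used here.

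**Figure D4:**
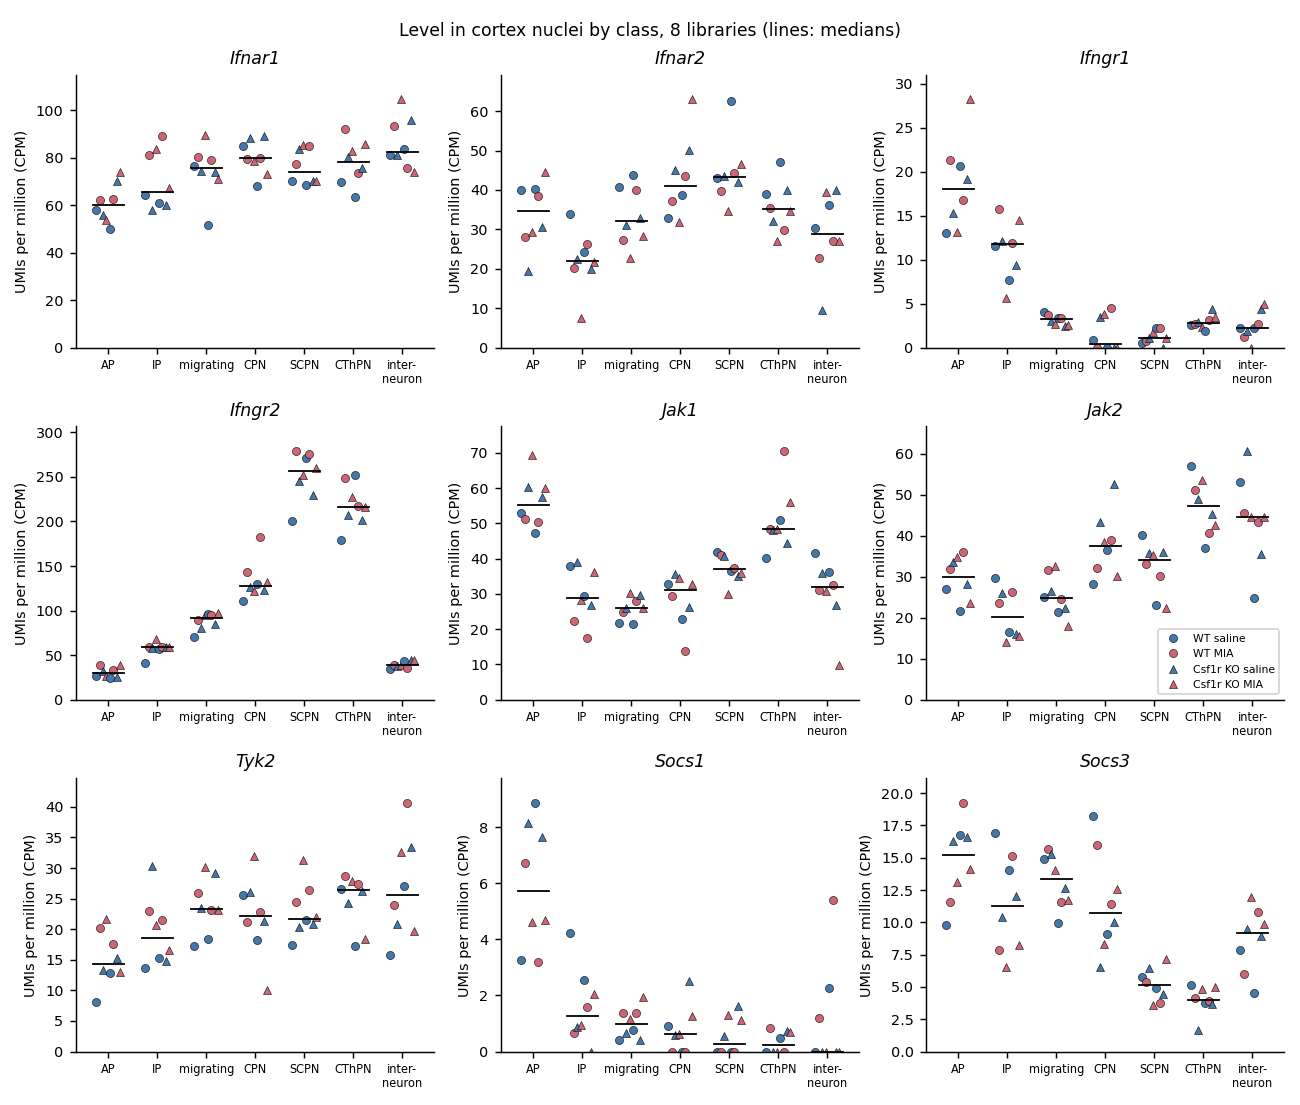
Levels of the 9 genes in CPM in 7 marker classes of nuclei, with 1 point for each of the 8 cortex libraries (circles WT, triangles Csf1r KO, blue saline, red MIA) and a line at the median. Ifngr1 and Socs1 are highest in AP-like nuclei, and Ifngr2 climbs from a median of 29.76 CPM there to 256.1 CPM in SCPN-like nuclei.

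By class, Ifngr2 formed a staircase. Its median was 29.76 CPM in AP-like nuclei, 38.9 in interneuron-like, 58.92 in IP-like, 91.97 in migrating, 128.0 in CPN-like, 216.8 in CThPN-like and 256.1 in SCPN-like nuclei. Neighbours in this order kept their order in 8 of 8 libraries, except interneuron-like over AP-like nuclei with 7 of 8. The ranges did not overlap between IP-like and migrating nuclei or between migrating and CPN-like nuclei, and the other neighbours overlapped. SCPN-like nuclei held 200.2 to 278.8 CPM and AP-like nuclei 24.61 to 39.08 CPM, a 10.0-fold difference in the fit (log2 fold change 3.33, SE 0.07).

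Ifngr1 ran the other way among the same classes, with a mean of 18.46 CPM in AP-like nuclei (13.03 to 28.22) and medians of 11.79 in IP-like nuclei (5.63 to 15.72) and 3.23 in migrating nuclei (2.53 to 4.03). AP-like lay above IP-like and IP-like above migrating nuclei in 8 of 8 libraries, the latter with no overlap. In the remaining classes its medians were 0.456 to 2.84 CPM from 10 to 47 UMIs over all libraries, and their order cannot be read at this depth. Socs1 had 52 UMIs in AP-like nuclei (median 5.71 CPM), 13 in IP-like and 23 in migrating nuclei, and 4 to 14 in each other class, too few to enter the test by class. Socs3 was lower than in AP-like nuclei in SCPN-like (-1.14, SE 0.20) and CThPN-like nuclei (-1.55, SE 0.22), and in interneuron-like nuclei (-0.60, SE 0.27, adjusted p = 0.0393), the last lost without any 1 of the libraries apart from both Csf1r KO MIA libraries (adjusted p from 0.0617 to 0.114), without a filter on low counts (0.0578), from 1000 UMIs per nucleus upward (0.0662) and without the 2 libraries that went against their labels (0.116).

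Jak1 was higher in AP-like nuclei (47.25 to 69.41 CPM) than in IP-like nuclei (17.53 to 38.99 CPM), with no overlap and a log2 fold change of -0.90 (SE 0.13). It was lower also in migrating (-0.84), CPN-like (-0.65), interneuron-like (-0.63) and SCPN-like nuclei (-0.28), the last lost without Csf1r KO MIA replicate 1 (-0.15, adjusted p = 0.222), and did not pass in CThPN-like nuclei (0.13). Jak2 had its highest median in CThPN-like nuclei (47.1 CPM, against 29.93 in AP-like and 20.07 in IP-like nuclei), but neighbouring classes overlapped. It passed against AP-like nuclei in CThPN-like (0.95), interneuron-like (0.75), CPN-like (0.50) and SCPN-like nuclei (0.40), and was lower in IP-like nuclei (-0.43), which did not pass without Csf1r KO MIA replicate 1 (-0.32, adjusted p = 0.0644). Tyk2 was higher than in AP-like nuclei in all 6 other classes (0.41 to 0.95), the value in IP-like nuclei being lost without WT saline replicate 1 (adjusted p = 0.0501) or Csf1r KO saline replicate 1 (0.158), with doublets kept (0.25, adjusted p = 0.166), with DESeq2 (0.0504), without a filter on low counts (0.062) and without the library block (0.0708). Ifnar1 was higher in all 6 as well (0.29 to 0.71). Ifnar2 was lower in IP-like nuclei (-0.56, SE 0.16) and higher in CPN-like, SCPN-like and CThPN-like nuclei (0.59, 0.71 and 0.38), the last lost without the library block (0.37, adjusted p = 0.0631). In CPM its CThPN-like and AP-like medians were alike (35.16 and 34.56), with CThPN-like higher in 4 of 8 libraries. The 0.38 is a change relative to the median gene. The Ifnar2 value of 0.24 in migrating nuclei (adjusted p = 0.0682) passed without Csf1r KO MIA replicate 1 or 2 (0.31 and 0.32, adjusted p = 0.0208 and 0.0204), without a filter on low counts (0.28, adjusted p = 0.0267) and from 1000 UMIs per nucleus upward (0.29, adjusted p = 0.0362).

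Against AP-like nuclei, 3 members rose and 4 fell of 8 tested in IP-like nuclei (55.1% of 11610 genes called), 3 and 2 in migrating nuclei (73.7%), and 5 and 2 in CPN-like nuclei (72.2%). The counts were 5 and 3 in SCPN-like nuclei (77.7%), 5 and 2 in CThPN-like nuclei (79.1%), and 4 and 3 in interneuron-like nuclei (68.5%). CPM of the median gene was lower than in AP-like nuclei by between -0.0844 (IP-like) and -0.317 (SCPN-like) on the log2 scale, and the fitted changes are relative to that. Of the other pathway genes between progenitors and projection neurons, Stat2 was higher in neurons (1.00), Stat5b (-4.47) and Stat3 (-1.54) were lower, and of 14 other negative regulators 5 were higher and 4 lower, with Socs2 at 2.14 and Pias3 at -2.01, beside the 78.1% of all genes called in this comparison.

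Under the labels as given, neither MIA nor loss of Csf1r changed a member detectably in any class of nuclei. The libraries labelled WT MIA replicate 2 and Csf1r KO saline replicate 2 went against their labels. Each of the 4 comparisons below uses a group that holds such a library, which limits what a missing call can say. Each comparison tested 50 pairs of a member and a class with edgeR, since Ifngr1 could be tested in 3 classes, Socs3 in 5, Socs1 in none and the other 6 genes in 7. After MIA in WT embryos 0 of 50 pairs passed, beside 0.0% of 71883 gene and class tests, with member values from -0.79 to 0.79. In Csf1r KO embryos 0 of 50 passed (0.0%), with values from -0.58 to 0.54. The difference between these responses was called in 0 of 50 (0.0%), and Csf1r KO against WT after saline in 0 of 50 (0.0%). Between 262 and 1008 genes per class reached an unadjusted p under 0.05 in WT, 91 to 175 in Csf1r KO, 169 to 371 for the difference and 338 to 931 for the genotypes. DESeq2 called 72 gene and class tests in WT and 43 between genotypes, and a replicate block 324, 3, 2 and 172 in the 4 comparisons, with no member among them.

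A single pair of member and class reached an unadjusted p under 0.05 over these 4 comparisons. Jak1 in IP-like nuclei stood at 38.03 and 29.31 CPM in WT saline and at 22.27 and 17.53 CPM in WT MIA libraries, from 36, 23, 34 and 22 UMIs, and the groups did not overlap. The 17.53 CPM comes from the library labelled WT MIA replicate 2, which went against its label. The difference was -0.79 (SE 0.31, interval -1.46 to -0.12, adjusted p = 0.934, edgeR). In Csf1r KO embryos Jak1 stood at 38.99 and 26.8 CPM after saline and at 28.16 and 36.17 CPM after MIA, which overlapped, the 26.8 CPM coming from the library labelled Csf1r KO saline replicate 2, which also went against its label. The difference between the genotypes was not called (0.74, edgeR).

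Ifnar1 was higher after MIA in 7 of 7 WT classes, by 0.01 to 0.40, Tyk2 in 6 of 7 (-0.09 to 0.79) and Ifnar2 in 1 of 7 (-0.48 to 0.15), but these classes come from the same 4 libraries and none of the values passed. Among them is the library labelled WT MIA replicate 2, which went against its label. Ifnar1 in WT ran from -0.00281 to 0.388 once both libraries of this kind were left out. Without the 2 libraries that went against their labels, no member passed in any of the 4 comparisons. That leaves WT MIA and Csf1r KO saline with 1 library each, assumed to vary like the other groups, so a missing call there says little. The 95% intervals reached a median of 0.59 to either side of the value on the log2 scale in each genotype. For the difference between genotypes the median was 0.84. They are not adjusted for the number of genes tested, so larger changes could also fail to pass with 2 libraries a group. Jak1 in IP-like nuclei of WT embryos (-0.79) was such a change.

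**Figure D5:**
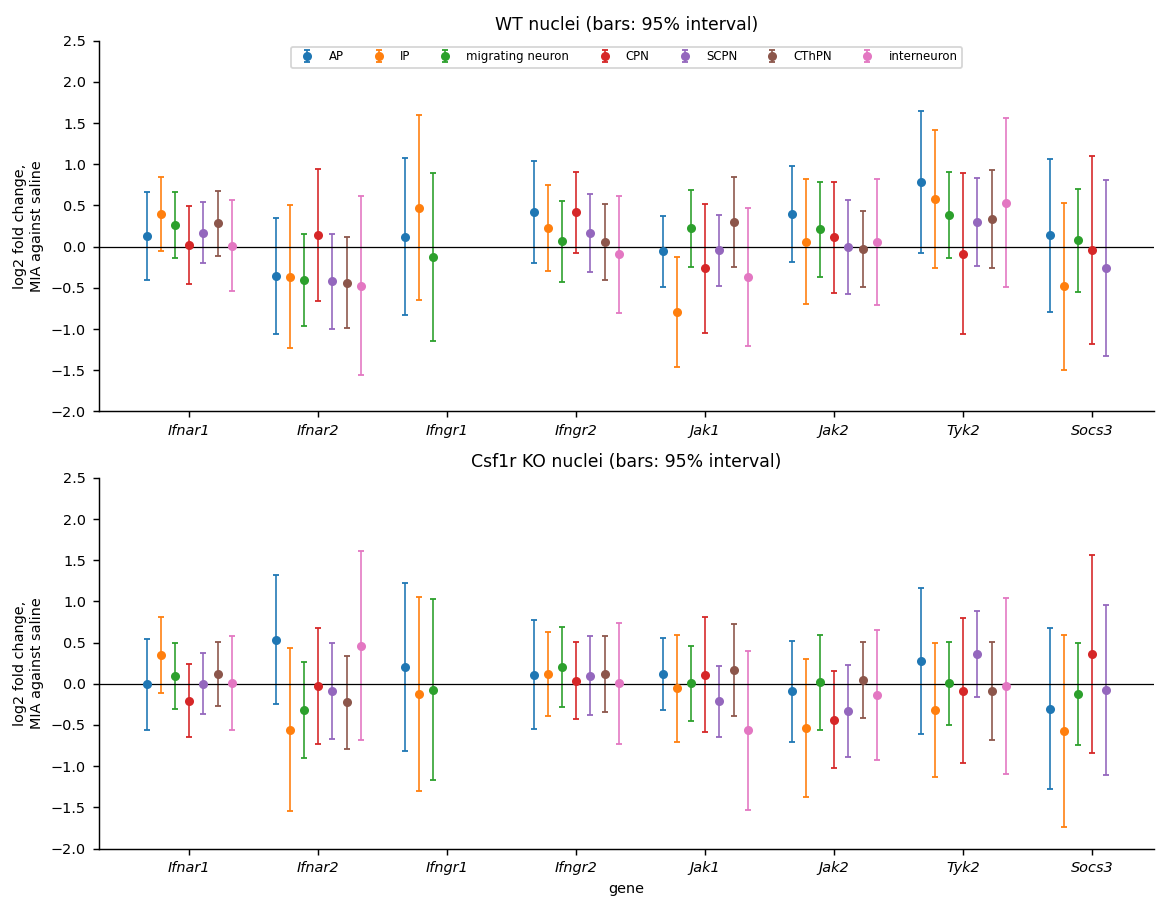
Log2 fold change of MIA against saline by class of nuclei for the members that could be tested, in WT embryos above and Csf1r KO embryos below, with 95% intervals as bars and a line at 0. Values run from -0.79 to 0.79 in WT and from -0.58 to 0.54 in Csf1r KO, and none passed.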

How the data were processed

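The authors aligned 10x 3′ reads to mm10 with Cell Ranger (3.1.0 in the submitters' processing notes and most file headers, 6.0.1 in the headers of the 4 replicate 2 nuclei libraries) and deposited UMI counts per gene and cell, with no normalization. Whether strand or introns were used in counting is not given in the sources used here. Microglia entered from 500 detected genes upward if mitochondrial genes gave no more than 20% of their UMIs, and nuclei from 500 UMIs and 200 genes upward. Predicted doublets (0.8% per 1000 cells) and clusters of other cells were removed, and shared microglial barcodes were kept once, a choice made after seeing the data. Cells were clustered with scanpy 1.11.5 and leidenalg 0.10.2 (2000 variable genes, 30 components, 20 neighbours, resolution 1), leaving out the members and the other signalling genes, and in nuclei also the interferon-stimulated, immediate early and NF-kB lists, which took part in microglia. Embryonic and P14 microglia were clustered apart. Clusters were named from markers, since no cell annotation was used here. A maturing cluster was called replicating if at least 4 of its 10 leading genes were in a list of DNA replication genes, written after those genes were seen. Substates with under 50 cells in a library were left out.

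Counts were summed per library, or per library and class. The 9 members, named in every comparison, and the pathway lists were chosen with earlier results of these data known. edgeR 4.0.16 in R 4.3.3 (quasi-likelihood test, TMM, filterByExpr, Benjamini-Hochberg over all genes tested, threshold 0.05) gave log2 fold changes with SE and 95% intervals. MIA was tested within each age, age steps in 1 fit of 18 libraries, nuclei by class in 1 fit of 4 groups, and classes with library as a block. The tests were also run on simulated counts in which few genes changed and libraries were not paired. That run does not cover comparisons in which most genes were called. DESeq2 1.42.0, other scaling, filters, cells and a replicate block were alternatives. Same-numbered libraries deviated together (r from 0.182 to 0.502 over 3 pairs at E13, 0.348 to 0.751 over 3 at E15 and 0.25 to 0.691 in nuclei). At P14 the 2 such pairs gave 0.206 and 0.366. Libraries of unlike number reached 0.315 at E13 and 0.228 at P14, above the lowest same-numbered values there, and 0.173 at E15. The numbers were taken as pairs only in the replicate block and in counts of pairs. The main tests of treatment, genotype and age used no replicate block. In the nuclei the number also marks the software version. Intervals of CPM are exact Poisson and cover counting error only. The floor for a count of 0 is 3 counts.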

Additional observations from a re-analysis of the deposited data

Results flagged for a closer look

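The nuclei also held 3 small marker-defined groups that enter no comparison, and 20 levels of members in them rested on more than the 3 UMIs that a count of 0 allows. They are sums over all libraries, given with exact Poisson 95% intervals that cover counting error only, and they were not tested. In 31 microglia-like nuclei (54473 UMIs, 4 libraries), Ifnar1 stood at 367.2 CPM (224.3 to 567.0), Ifnar2 at 146.9 (63.4 to 289.4), Ifngr1 at 238.7 (127.1 to 408.1), Ifngr2 at 238.7 and Jak1 at 146.9, each from 8 to 20 UMIs. Socs1 had 0 UMIs there, which allows up to 55.1 CPM by the floor of 3 counts and up to 67.72 CPM by the exact interval.

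In 59 vascular-like nuclei (146286 UMIs), the levels were 136.7 CPM for Ifnar1 (83.51 to 211.2), 116.2 for Ifnar2, 54.69 for Ifngr1 (23.61 to 107.8), 34.18 for Ifngr2 (11.1 to 79.76), 95.7 for Jak1, 54.69 for Jak2 and 27.34 for Tyk2. In 138 Cajal-Retzius-like nuclei (524146 UMIs), they were 57.24 CPM for Ifnar1, 11.45 for Ifnar2, 64.87 for Ifngr2 (44.92 to 90.65), 47.7 for Jak1, 45.79 for Jak2, 41.97 for Tyk2, 9.54 for Socs1 (3.097 to 22.26) and 30.53 for Socs3 (17.45 to 49.57). Ifngr1 had 0 UMIs in the Cajal-Retzius-like nuclei, which allows up to 5.72 CPM by the floor of 3 counts and up to 7.038 CPM by the exact interval. Among the 4 P14 saline libraries no member had a library far from the others by Dixon's test (0 of 9 genes).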

How the results depend on the processing

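No direction of a member turned among the calls of the main tests. Among steps that passed only in another setting, some did turn. From E13 to E15 after saline, Ifnar1 reached -0.242 and Socs1 -0.385 in their lowest setting. From E15 to P14 after saline, Socs1 reached -0.00568. Over single members, 486 of their values without 1 library kept their side of the threshold, 12 came to pass and 42 ceased to pass, and under other settings 521, 13 and 33. The replicate block changed no member's call other than those of Jak2 and Socs1 given above, and moved the counts of all genes only where given here. Members called from E13 to E15 after saline were 4 within the maturing or homeostatic clusters and 1 to 4 without 1 library, and after MIA 1 to 4 without 1 library. From E15 to P14 after saline they were 3 without a filter on low counts and 3 to 4 without 1 library. With the replicating clusters left out of the maturing or homeostatic ones, chosen after seeing the data, members called from E13 to E15 were 0 after saline and 0 after MIA (3 and 0 of all genes), and from E15 to P14 they were 3 and 1 (4671 and 2993 of all genes). That setting has 1 to 47 cells in each E13 library.

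In the MIA and genotype comparisons, leaving out nuclei libraries leaves a group with 1 library, assumed to vary like the others, and says nothing of stability. Among all genes, MIA called 2 at E13 with DESeq2, 6 with the replicate block and 0 to 6 without 1 library, and 1 at P14 with DESeq2. Without 1 library, 2007 to 4524 genes were called from E13 to E15 after saline, and 3073 to 5612 from E15 to P14 after MIA. In WT nuclei MIA called 72 with DESeq2, 222 without a filter, 324 with the replicate block, 1 without both libraries that went against their labels and 0 to 5 without 1 library. In Csf1r KO nuclei it called 14 without a filter, 3 with the replicate block and 0 to 1 without 1 library. The difference between genotypes in response gave 31 without a filter and 2 with the replicate block. Csf1r KO against WT after saline gave 43 with DESeq2, 132 without a filter, 172 with the replicate block and 0 to 2 without 1 library. No member was called in any of these MIA and genotype comparisons under any setting. With shared barcodes kept in every library, chosen after seeing the data, the median Socs1 of embryonic interferon-responsive cells was 79.89 CPM. The largest median change of all genes in a comparison was 0.0457 in the main tests. It was 0.238 with the replicating clusters left out, 0.139 without a filter and at most 0.0865 in the other settings. Depth limits Socs1 most, with 7 to 17 UMIs in E13 MIA replicates 2 and 1. The causes of these differences were not tested.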
